A study of Homo sapiens with 6 samples.

Results

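The plasminogen activator genes PLAU and PLAT, the receptor gene PLAUR and the tissue factor gene F3 were examined. The serpin genes SERPINE2, SERPINB2, SERPINB7, SERPINB8 and SERPINB9 were examined with them, in MDA-MB-231 cells carrying a hairpin against brachyury. These 9 genes were picked by symbol from the 54259 gene symbols of the count table, and all 9 were present and passed the filter on low counts. They were picked with their difference between the groups known, so the differences of these 9 genes are given as a description, without p-values. RNA sequencing covered 6 libraries of MDA-MB-231, an established line of human breast cancer with mesenchymal features. In 3 of them (shBry) the cells carried a short hairpin RNA directed against the transcription factor brachyury, and in the other 3 (shNC) a control hairpin. No other treatment, time point or clone is named for either group, and the hairpin sequence and the number of independent cultures are not given in the sources used here. The spread between libraries may therefore be technical. The brachyury gene, listed under its older symbol T, had 0 counts in each of the 6 libraries, the shNC controls included. No brachyury RNA was thus detected in either group, and the knockdown could not be checked on its target. Whether the differences between the groups follow from a loss of brachyury was not tested.

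Plasminogen is a circulating zymogen that is cut to plasmin, a protease of fibrin and of extracellular matrix. Urokinase, the product of PLAU, and tissue plasminogen activator, the product of PLAT, make this cut, and the urokinase receptor encoded by PLAUR holds urokinase at the cell surface. Serpins are suicide inhibitors of serine proteases. Those encoded by SERPINB2 and SERPINE2 inhibit plasminogen activators, and the latter also inhibits thrombin. SERPINB9 encodes an intracellular inhibitor of granzyme B, SERPINB8 an inhibitor of furin, and SERPINB7 a clade B serpin known as megsin. Tissue factor, the product of F3, is the membrane protein that starts coagulation. MDA-MB-231 is widely used as a line with high urokinase and urokinase receptor.

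The total count lay between 19319411 and 22985371 per library, and the limit set by 0 counts was at most 0.162 CPM (3 counts in the library of the smallest effective size, counting error only). CPM is the count relative to library size, here scaled with the TMM method of edgeR, which corrects library totals for composition. The first principal component held 74.9% of the variance and separated shBry from shNC. Of 6 genes that MDA-MB-231 cells should express, VIM, CD44, CAV1, AXL, MSN and LAMB3, all 6 were present, with a summed level of 7892.1 to 8261.4 CPM in shNC and 7781.3 to 8100.9 CPM in shBry, although CAV1 was called lower and LAMB3 higher. Of 6 epithelial and hormone receptor genes that should be low or absent, ESR1, PGR and CDH1 had at most 2 counts in any library. GATA3 (9.35 to 13.9 CPM over the 6 libraries) and FOXA1 (4.82 to 7.17 CPM) were present and not called, and EPCAM was called higher. The summed level of the 6 was 15.8 to 19 CPM in shNC and 22.7 to 23.9 CPM in shBry. Of 10 leukocyte markers, PTPRC, TYROBP and AIF1 were at 0 in all 6 libraries, and the summed level of the list, nearly all of it CD68, was 373.8 to 406.7 CPM in shNC and 406.1 to 434.8 CPM in shBry, while CD14 was called lower, with 1.74 to 2.0 CPM in shNC and 0.621 to 1.01 CPM in shBry. Of 7 keratinocyte markers 5 were at 0 in every library, and the summed level was at most 0.754 CPM. Of 6 endothelial markers CLDN5 was at 0, and the sum was 3.4 to 4.63 CPM in shNC and 1.29 to 2.66 CPM in shBry, where KDR was called lower. Of 7 fibroblast markers DCN was at 0, and the sum was 30.2 to 35.6 CPM in shNC and 31.7 to 35.3 CPM in shBry. The part of these marker differences in the results below was not tested. In bulk RNA, fewer cells that express a gene and less RNA per cell cannot be told apart.

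The 250 bases before the annotated start of 4 of these genes are shown because each holds the AP-1 motif TGANTCA, the site of the FOS and JUN transcription factors. Sequences are those of RefSeq on GRCh38.p14, read 5′ to 3′ along the gene, with matches to the motifs searched in capitals.
PLAUR, chr19:43670170-43670419, minus strand: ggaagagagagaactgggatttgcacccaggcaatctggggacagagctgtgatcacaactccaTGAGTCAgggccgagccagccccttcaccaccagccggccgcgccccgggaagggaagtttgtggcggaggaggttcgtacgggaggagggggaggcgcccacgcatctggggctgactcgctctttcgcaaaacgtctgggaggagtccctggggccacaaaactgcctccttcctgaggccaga
SERPINB2, chr18:63887455-63887704, plus strand: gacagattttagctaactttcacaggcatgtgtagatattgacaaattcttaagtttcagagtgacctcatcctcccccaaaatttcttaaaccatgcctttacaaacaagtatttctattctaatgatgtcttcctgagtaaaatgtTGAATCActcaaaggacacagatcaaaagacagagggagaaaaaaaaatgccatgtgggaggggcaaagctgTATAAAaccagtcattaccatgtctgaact
SERPINB8, chr18:63969831-63970080, plus strand: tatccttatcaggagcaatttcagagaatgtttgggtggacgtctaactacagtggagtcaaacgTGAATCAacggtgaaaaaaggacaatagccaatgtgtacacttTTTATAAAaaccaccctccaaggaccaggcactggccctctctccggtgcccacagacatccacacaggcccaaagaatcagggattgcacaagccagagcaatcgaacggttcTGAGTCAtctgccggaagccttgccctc
F3, chr1:94541760-94542009, minus strand: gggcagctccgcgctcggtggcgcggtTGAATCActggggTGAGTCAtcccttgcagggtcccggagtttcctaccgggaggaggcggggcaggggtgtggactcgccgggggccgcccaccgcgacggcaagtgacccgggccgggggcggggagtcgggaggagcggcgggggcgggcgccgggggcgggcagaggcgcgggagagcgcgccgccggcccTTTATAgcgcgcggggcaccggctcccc
The capitals mark AP-1 matches and the TATA motif TATAAA or its reverse complement. Positions are those of the first base of a match, counted back from the start. PLAUR holds TGAGTCA at -186, and SERPINB2 holds TGAATCA at -102. SERPINB8 holds TGAATCA at -185 and TGAGTCA at -28. F3 holds TGAATCA at -223 and TGAGTCA at -210. A TATA match lies at -30 in SERPINB2 and, on the other strand, at -28 in F3. In SERPINB8 matches on both strands overlap, at -142 and -140.

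Promoter windows from 250 bases before to 50 after the start were found in the RefSeq table for 8 of the 9 genes, with the exception of PLAT. Only the window kept for each gene was searched, so other annotated starts outside it were not covered. Up to 16 transcripts per gene are annotated (PLAUR). Both strands were searched. The AP-1 motif was held by 4 of the 8 windows, against 7.76% of 27305 windows of all genes and 4.93% of 10516 windows of tested genes. The TATA motif was held by 4 of the 8, SERPINB2, SERPINB8, SERPINB9 and F3, against 12% of all windows and 5.33% of those of tested genes. The kappa B motif of NF-kappa-B, searched as a strict consensus, was held by the SERPINB7 window alone among the 8. It was in 10.8% of all windows and 13.1% of those of tested genes. Sites that depart from this consensus were not counted, so a window without a match may still hold such a site. None of the 8 held the T-box motif AGGTGTGA, which was in 0.982% of all windows and 0.704% of those of tested genes. With a motif this rare, the lack of a match in 8 windows says little, and sites that depart from it were not counted. The cAMP response element TGACGTCA and the CEBP-ATF site TGATGNAAT were also not found in the 8, against 1.98% and 1.02% of all windows. Motifs of other factors, and more distant enhancers, were not searched, and a match in letters is a description and no evidence of binding.

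Of the 9 genes, 7 were called higher in shBry, PLAU, PLAUR, SERPINE2, SERPINB2, SERPINB8, SERPINB9 and F3, and 0 were called lower (fold change over 1.5 and adjusted p under 0.05 over all tested genes). Over all 15277 tested genes, 17.1% were called higher and 15.2% lower, 32.4% in all. In these 7 genes the shBry values lay above all shNC values, as they did in 30.6% of tested genes. In PLAT they lay below all shNC values, as in 28.9% of tested genes, and in SERPINB7 the groups overlapped. In all, 8 of the 9 had groups that did not overlap, against 59.5% of tested genes, and 8 passed the adjusted p without the fold change limit, against 53.3%. Since the genes were picked for their difference in this comparison, nothing is read from these counts. The median log2 fold change was 0.93 over the 9 genes and 0.03 over all tested genes. SERPINB2 passed the filter on low counts through its shBry libraries only.

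**Figure D1:**
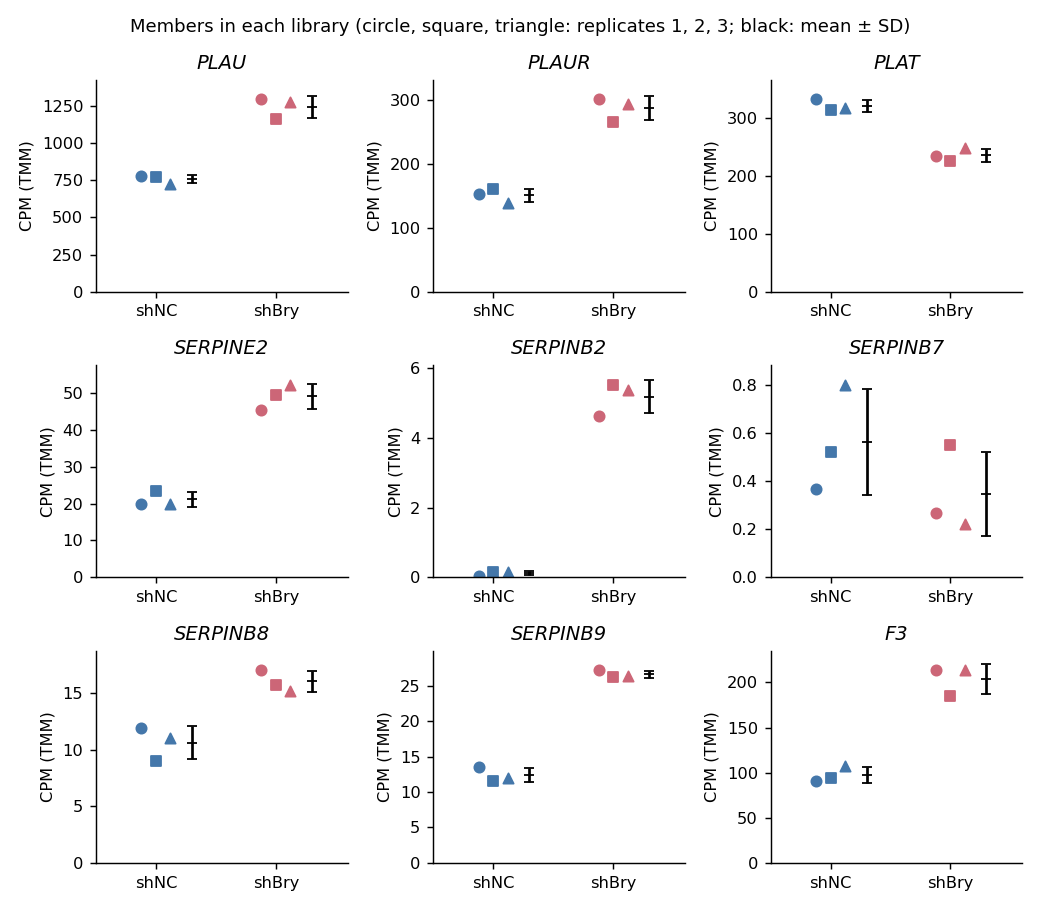
CPM (TMM-normalized, linear axis from 0) of the 9 genes in each of the 3 shNC and 3 shBry libraries, with the mean and SD of each group in black. In 7 panels all shBry points lie above all shNC points, in PLAT they lie below, and in SERPINB7 the groups overlap.

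**Figure D2:**
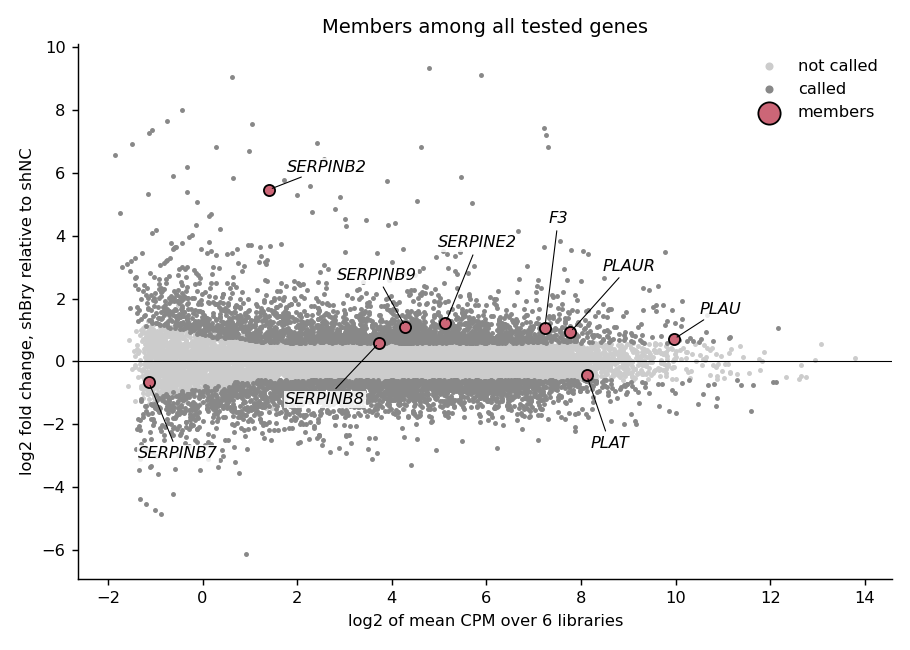
Log2 fold change (shBry relative to shNC) against the log2 of the mean CPM for all 15277 tested genes, with the 9 genes in red. SERPINB2, at 5.47, lies far above the other 8, which lie between -0.66 and 1.21, and PLAU has the highest mean level of the 9.

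Among the activators, PLAU was higher and PLAT lower in shBry. PLAU had 776.3, 774.0 and 723.4 CPM in shNC replicates 1, 2 and 3 and 1295.3, 1158.1 and 1272.3 CPM in shBry replicates 1, 2 and 3. Its log2 fold change was 0.71 (standard error 0.08), a 1.64-fold higher level in shBry. The lowest shBry library lay well above the highest shNC library, and within each group the libraries were close, with a coefficient of variation of 3.95% in shNC and 5.92% in shBry. In GRCh38, PLAU spans 73909177 to 73917497 of chromosome 10 (plus strand), and exons of C10orf55 on the opposite strand overlap 31.1% of its exon bases. C10orf55 had between 11 and 44 counts per library, against at least 14443 for PLAU, and whether reads were counted by strand is not given in the sources used here.

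PLAT had 332.9, 313.7 and 316.8 CPM in the shNC libraries and 233.7, 226.0 and 247.6 CPM in the shBry libraries. Its log2 fold change was -0.45 (standard error 0.08), which is 1.36-fold lower in shBry and inside the fold change limit of 1.5. The groups did not overlap, and PLAT was the only one of the 9 genes with all shBry libraries below all shNC libraries. The PLAT gene lies on chromosome 8 from 42175233 to 42207724 on the minus strand, with no exon base shared with another gene. The reads of PLAU exceeded those of PLAT per exon base by 5.23, 5.54 and 5.12 times in the 3 shNC libraries. In the 3 shBry libraries this ratio, taken within each library and so free of the scaling between libraries, was 12.4, 11.5 and 11.5. The exon bases are those of all annotated transcripts merged, 2950 for PLAU and 6618 for PLAT, so the size of the ratio depends on this length. Without division by length, the ratio of counts was 2.33, 2.47 and 2.28 in shNC and 5.54, 5.12 and 5.14 in shBry. By either measure, every shBry library had a higher ratio of urokinase to tissue activator RNA than every shNC library. This follows from the opposite differences of PLAU and PLAT, which were known when they were picked. The ratio is a description and adds no support to them.

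PLAUR, the receptor gene, differed in the same direction as PLAU. It had 153.0, 159.8 and 139.2 CPM in the shNC libraries and 301.0, 265.3 and 292.7 CPM in the shBry libraries. The log2 fold change was 0.93 (standard error 0.08), or 1.90-fold. All shBry libraries were above all shNC libraries, and shBry replicate 2 was the lowest of its group for both PLAU and PLAUR. PLAUR lies on chromosome 19 from 43646095 to 43670547 on the minus strand, shares no exon base with another gene, and has no stretch of 50 transcript bases in common with one.

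Among the serpins, SERPINB2, which encodes plasminogen activator inhibitor 2, differed most. It had 1, 3 and 3 counts in the shNC libraries and 86, 131 and 121 counts in the shBry libraries. In CPM these are 0.0458, 0.142 and 0.15 in shNC and 4.63, 5.52 and 5.36 in shBry. The shNC libraries were at or under the 3-count floor, so SERPINB2 was hardly detected in these libraries. The ratio of the summed counts, 338 to 7, was 46.9 after scaling to effective library size (exact Clopper-Pearson 95% interval 22.5 to 117.5, counting error only). The fitted log2 fold change was 5.47 (standard error 0.35). SERPINB2 shares 18.2% of its 50-base transcript stretches with its neighbor SERPINB10, which was listed at 0 in every library, so reads from the shared part could have been left uncounted.

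SERPINE2, which encodes protease nexin 1, had 20.0, 23.5 and 20.0 CPM in the shNC libraries and 45.4, 49.6 and 52.3 CPM in the shBry libraries. This is a log2 fold change of 1.21 (standard error 0.11), or 2.32-fold. The groups were far apart, and the lowest shBry library lay well above the highest shNC library. SERPINB9, the granzyme B inhibitor gene, had 13.5, 11.6 and 12 CPM in shNC and 27.2, 26.3 and 26.4 CPM in shBry, so that its log2 fold change was 1.11 (standard error 0.12). Its shBry libraries were the closest of any of the 9 genes, with a coefficient of variation of 1.8%. The granzyme gene GZMB itself was at 0 in all 6 libraries.

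SERPINB8, the furin inhibitor gene, had 11.9, 8.98 and 11 CPM in the shNC libraries and 17.0, 15.7 and 15.2 CPM in the shBry libraries. Its log2 fold change of 0.59 (standard error 0.14) lay at the fold change limit, which is 1.5-fold. The groups did not overlap. Without shNC replicate 2, the library with the lowest value, the log2 fold change was 0.46 and the gene was no longer called. The same held without shNC replicate 3 (0.58), shBry replicate 1 (0.54) or shBry replicate 2 (0.58). FURIN, its target gene, had 288.8 ± 21.1 CPM in shNC and 259.3 ± 5.77 in shBry (SD, n = 3) and was not called (log2 fold change -0.16, adjusted p = 0.11, edgeR). Of the exon bases of SERPINB8, 10.7% lie in exons of other genes, among them HMSD, which had 49 to 80 counts per library.

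SERPINB7 was expressed at the edge of detection. It had 8, 11 and 16 counts in the shNC libraries and 5, 13 and 5 counts in the shBry libraries. The ratio of the summed counts, 23 to 35, was 0.638 after scaling (exact Clopper-Pearson 95% interval 0.36 to 1.11, counting error only). The libraries of the groups overlapped, and counts this low leave the ratio imprecise. The fitted log2 fold change was -0.66 (standard error 0.50), and it moved from -1.19 without shBry replicate 2 to -0.35 without shNC replicate 3.

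F3, the tissue factor gene, had 90.3, 94.0 and 107.4 CPM in the shNC libraries and 213.4, 185.0 and 213.6 CPM in the shBry libraries. Its log2 fold change was 1.07 (standard error 0.09), or 2.10-fold. All shBry libraries lay above all shNC libraries, and shBry replicate 2 was again the lowest of its group. F3 lies on chromosome 1 from 94529225 to 94541800 on the minus strand and shares no exon base with another gene.

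**Figure D3:**
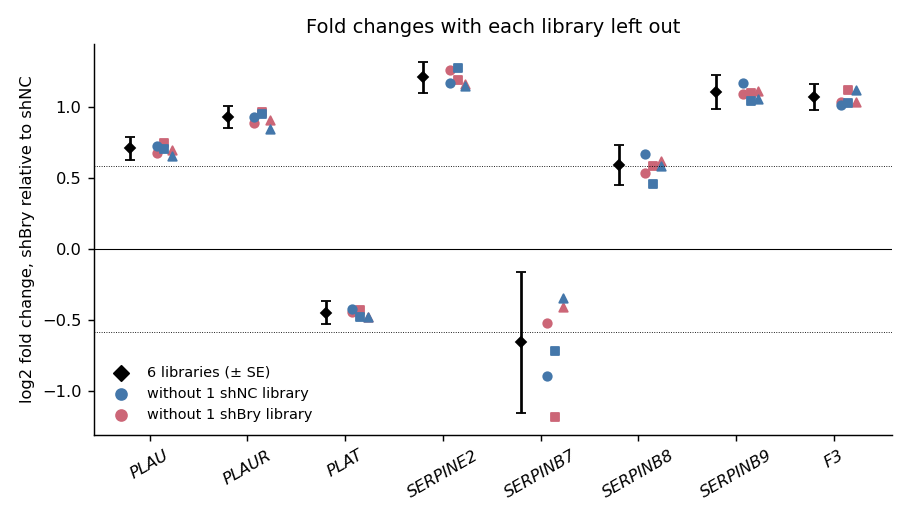
Log2 fold change of 8 of the genes with all 6 libraries (black, with the standard error) and with each library left out in turn (blue for an shNC library, red for an shBry library). SERPINB2, which ranged from 5.09 to 5.69, is off this scale. The dotted lines mark the fold change limit of 1.5. SERPINB8 crosses the limit and SERPINB7 spreads from -1.19 to -0.35, while the other 6 stay on 1 side of the limit.

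Levels of different genes were compared per length, as CPM per kilobase of merged exon (RPKM). The merged exons are those of all annotated transcripts, and which transcripts were expressed was not tested. The order of genes near in level depends on this length. PLAU was the highest of the 9 genes in both groups, with 256.9 ± 10.1 RPKM in shNC and 421.0 ± 24.9 in shBry (SD, n = 3). It lay above 99.2% of 13588 tested genes with an annotated length in shNC, and above 99.6% in shBry. In shNC it was followed by PLAT (48.5 ± 1.56), F3 (33.8 ± 3.14) and PLAUR (33.8 ± 2.35), and the last 2 did not differ beyond their spread. In shBry the order was F3 (71.0 ± 5.72), PLAUR (64.2 ± 4.19) and PLAT (35.6 ± 1.65), and the libraries of F3 and PLAUR again overlapped. Per length, PLAT was thus the second among the 9 genes in shNC and the fourth in shBry. In CPM, without the length, shNC had PLAUR at 150.7 and F3 at 97.2. In shBry PLAUR had 286.3, PLAT 235.8 and F3 204.0 CPM. The serpins were far lower, from 3.0 ± 0.238 RPKM for SERPINB9 down to 0.041 ± 0.0211 for SERPINB2 in shNC. In shBry they ran from 6.47 ± 0.117 for SERPINB9 to 0.131 ± 0.0668 for SERPINB7. SERPINB9, SERPINE2 and SERPINB8 kept this order per length in both groups, with no overlap between neighbors in the order. In CPM SERPINE2 lay above SERPINB9, with 21.2 and 12.4 in shNC and 49.1 and 26.6 in shBry. In shBry SERPINB2 (1.88 ± 0.173) passed SERPINB7, which had been the higher one in shNC.

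The clade B serpin genes lie in clusters on 2 chromosomes. On chromosome 18, between 63476761 and 64019779, 10 such genes are annotated, and SERPINB7, SERPINB2 and SERPINB8 were the 3 with enough counts to be tested. The other 7, SERPINB5, SERPINB12, SERPINB13, SERPINB4, SERPINB11, SERPINB3 and SERPINB10, had at most 4 counts in any library, and 4 of them had none. SERPINB2 lies between SERPINB7, whose groups overlapped, and SERPINB10, listed at 0. On chromosome 6, between 2832332 and 2972165, SERPINB1, SERPINB9 and SERPINB6 lie side by side and all 3 were tested. SERPINB1, the gene of an elastase inhibitor, had 69.9 ± 3.47 CPM in shNC and 104.7 ± 4.54 in shBry (log2 fold change 0.58, adjusted p = 4e-05, edgeR), just under the fold change limit. SERPINB6 had 159.0 ± 2.75 and 143.8 ± 13.6 CPM and was not called (log2 fold change -0.15, adjusted p = 0.16, edgeR).

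**Figure D4:**
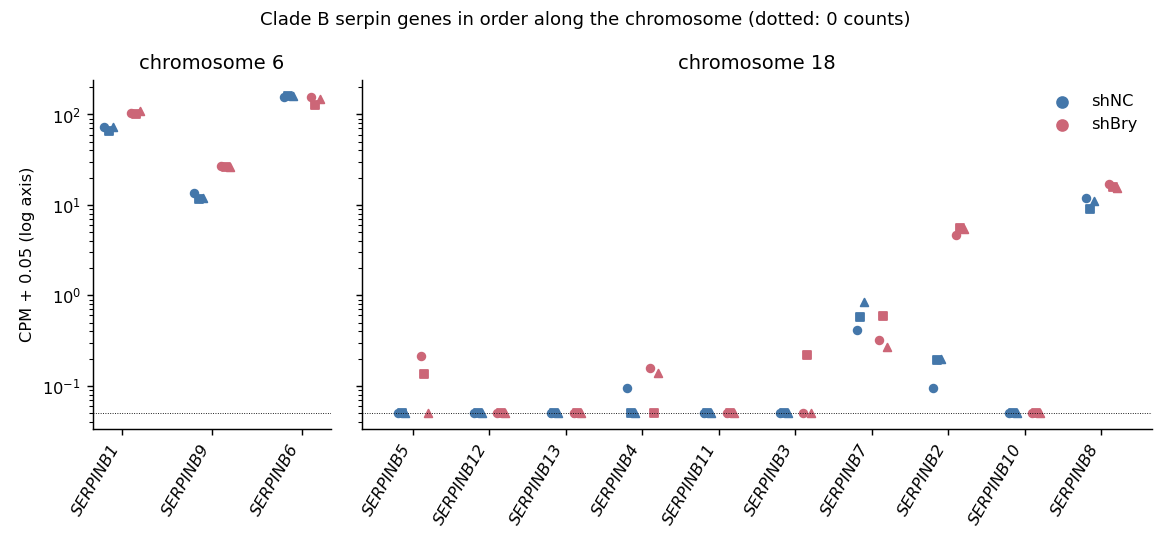
CPM plus 0.05 (log axis) of the clade B serpin genes in their order along chromosomes 6 and 18, for each of the 3 shNC (blue) and 3 shBry (red) libraries. On chromosome 18 most genes sit at or near 0 counts, SERPINB2 stands apart between the groups, and SERPINB8 lies highest. On chromosome 6 all 3 genes are expressed.

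Other genes of the plasminogen system were called in both directions. Of 17 listed, 9 had enough counts to be tested, 1 was called higher (PLGRKT) and 3 lower (S100A10, SERPINA5 and ENO1), where 32.4% of all tested genes were called. The median log2 fold change of the 9 was -0.04. S100A10, part of the annexin A2 complex that binds plasminogen at the cell surface, fell from 388.8 ± 10.5 to 210.0 ± 30.8 CPM (log2 fold change -0.89, adjusted p = 4.2e-06, edgeR). Its partner ANXA2 had 2630.1 ± 70.8 and 2875.1 ± 338.4 CPM and was not called (log2 fold change 0.13, adjusted p = 0.25). ENO1, an enzyme of glycolysis that also binds plasminogen at the surface, fell from 5472.6 ± 254.2 to 3481.7 ± 369.2 CPM (log2 fold change -0.65, adjusted p = 2.7e-05). PLGRKT, the gene of a plasminogen receptor, rose by 0.64 on the log2 scale (adjusted p = 0.0014). SERPINA5, the protein C inhibitor, fell by 0.80 (adjusted p = 0.021), but its shBry libraries were uneven, with 1.45, 3.67 and 3.28 CPM. SERPINA5 lost its call without shNC replicate 1 (-0.79), shNC replicate 2 (-0.78) or shBry replicate 1 (-0.51). PLGRKT fell under the fold change limit without shNC replicate 1 (0.56) or shBry replicate 3 (0.56), so that without shNC replicate 1 the list had 2 called genes. Plasminogen itself, PLG, was at 0 counts in all 6 libraries, as were VTN and A2M.

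Of 28 other serpin genes, 8 were tested, 2 were called higher (SERPINA1 and SERPINA3) and 1 lower (SERPINA5), beside 17.1% and 15.2% of all tested genes. Their median log2 fold change was 0.18. SERPINA5 and SERPINI1 are also in the plasminogen list, so the lists are not independent. SERPINA1, which encodes the elastase inhibitor alpha-1 antitrypsin, rose from 4.49, 4.77 and 3.46 CPM to 11.8, 10.6 and 11.8 CPM (log2 fold change 1.42, standard error 0.17, adjusted p = 6.3e-06, edgeR). SERPINA3 had only 12 counts over the shNC libraries and 39 over the shBry libraries (log2 fold change 1.62, adjusted p = 0.024, edgeR). It passed the filter on low counts through its shBry libraries, so its test depended on the group where it is high. Its call was lost without shNC replicate 1, without shNC replicate 3 and without shBry replicate 2, and with DESeq2 (1.63), and a minimum of 10 counts in every library removed the gene. SERPINH1, a collagen chaperone and no protease inhibitor, had 354.8 ± 21.9 and 469.5 ± 35.2 CPM (log2 fold change 0.40, adjusted p = 0.00099, edgeR), inside the fold change limit.

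Genes of the coagulation list differed in both directions. Of 21 genes, 12 were tested, 3 were called higher (THBD, F2RL2 and TFPI2) and 2 lower (TGM2 and F2R), beside 17.1% higher and 15.2% lower over all tested genes. The median log2 fold change of the 12 was -0.17, against 0.03 over all tested genes. F7 and F10, the coagulation factors that tissue factor engages, had at most 2 counts in any library. TFPI, the inhibitor of the tissue factor pathway, had 38.1 ± 4.03 CPM in shNC and 27.9 ± 3.3 in shBry (log2 fold change -0.45, adjusted p = 0.0055, edgeR), inside the fold change limit. Its relative TFPI2 rose from 15.6 ± 1.09 to 34.7 ± 0.52 CPM (log2 fold change 1.15, adjusted p = 9.3e-07). THBD, which encodes thrombomodulin, the cofactor that turns thrombin toward anticoagulation, rose from 16.1, 16.2 and 14.9 CPM to 44.1, 48.1 and 48.5 CPM (log2 fold change 1.57, standard error 0.10, adjusted p = 2.5e-08). The thrombin receptor gene F2R fell from 6.91 ± 0.873 to 4.0 ± 0.835 CPM (log2 fold change -0.78, adjusted p = 0.0038). F2RL2, a further receptor of this family, had 30 counts in all shNC libraries and 74 in all shBry libraries (log2 fold change 1.24, adjusted p = 0.014, edgeR). It lost its call without shNC replicate 2 or shBry replicate 3. Its shNC libraries alone would not have passed the filter on low counts. TGM2, a transglutaminase that cross-links matrix proteins, had the largest fall of the list, from 1631.0, 1554.8 and 1496.5 CPM to 509.4, 511.7 and 481.6 CPM (log2 fold change -1.64, standard error 0.08, adjusted p = 7.6e-10).

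PLAUR belongs to the LY6/uPAR domain family, and of 15 other genes of this family 6 were tested. Of these, 1 was called higher and 2 lower, beside 17.1% and 15.2% of all tested genes, and the median log2 fold change was -0.70. LYPD3, the gene of a structural relative of the urokinase receptor, fell from 3.34, 3.83 and 2.7 CPM to 1.18, 1.14 and 1.55 CPM (log2 fold change -1.35, standard error 0.25, adjusted p = 0.00046, edgeR). LYPD6 fell by 1.12 on the log2 scale (adjusted p = 6e-05) and PINLYP rose by 0.73 (adjusted p = 0.0032). CD59, a complement inhibitor and the most abundant of these genes, had 352.0 ± 8.09 CPM in shNC and 405.9 ± 30.7 in shBry (log2 fold change 0.21, adjusted p = 0.041), inside the fold change limit. PLAUR had a log2 fold change above those of all 6 tested genes, a description only, since it was picked for its difference. LYPD1, with 3 counts over the shNC libraries and 38 over the shBry libraries, was removed by the filter and is not among the 6.

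Among 29 other serine proteases and small inhibitors, 13 were tested, 2 were called higher and 1 lower, beside 17.1% and 15.2% of all tested genes. Their median log2 fold change was 0.06. SLPI, which encodes a secreted leukocyte protease inhibitor, rose from 7, 7 and 10 counts in the shNC libraries to 91, 139 and 94 in the shBry libraries (log2 fold change 3.68, standard error 0.29, adjusted p = 1.4e-07, edgeR). The shNC libraries of SLPI alone would not have passed the filter on low counts, so its test depended on the group where it is high. ST14, the gene of matriptase, a membrane protease that can activate urokinase, rose from 1.6, 1.75 and 1.15 CPM to 7.21, 5.44 and 5.81 CPM (log2 fold change 2.02, adjusted p = 4.1e-06). Of the matriptase inhibitor genes, SPINT1 was not called (log2 fold change -0.23, adjusted p = 0.24, edgeR). SPINT2 passed the adjusted p but lay inside the fold change limit (log2 fold change 0.38, adjusted p = 0.03, edgeR). PRSS23 fell from 170.7 ± 6.46 to 85.8 ± 7.13 CPM (log2 fold change -0.99, adjusted p = 3.3e-07).

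**Figure D5:**
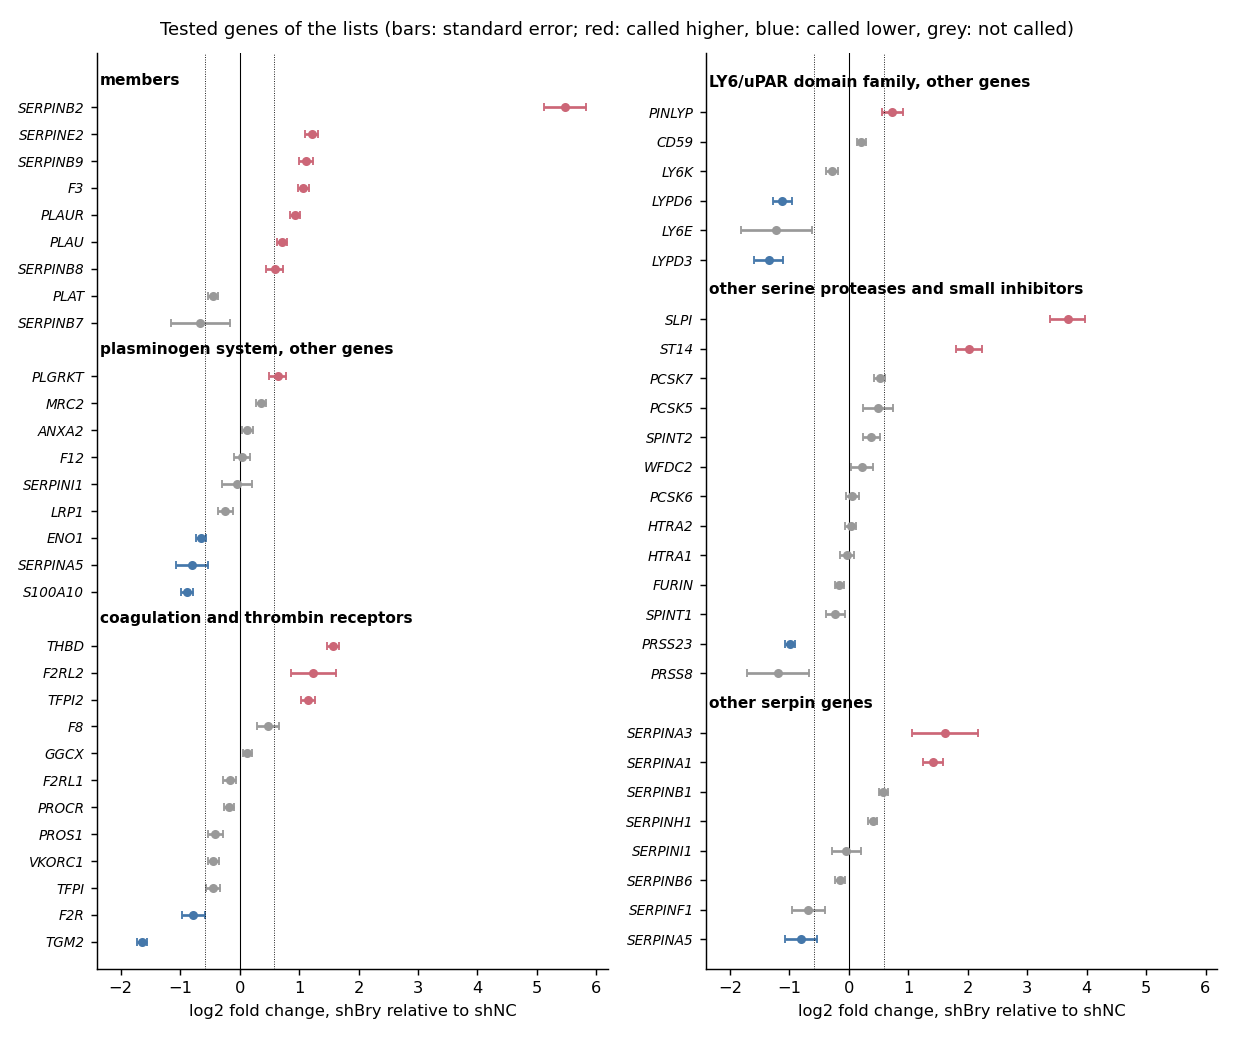
Log2 fold change (shBry relative to shNC) with its standard error for the 9 genes and for the tested genes of the 5 related lists, red where called higher, blue where called lower and grey where not called. The dotted lines mark the fold change limit of 1.5. SERPINB2 at 5.47 and SLPI at 3.68 lie farthest to the right and TGM2 at -1.64 farthest to the left.

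The genes whose pattern over the 6 libraries was most like that of PLAU, PLAUR and F3 were sought among 9406 tested genes whose mean reached 10 CPM, by the root mean square difference of log2 CPM centred on each gene's mean. For PLAU they were IL27RA (difference 0.025) and DUSP7 (0.029), with log2 fold changes of 0.69 and 0.76. For PLAUR they were MAFG (0.023) and NFKBIA (0.024), with log2 fold changes of 0.92 and 0.90. For F3 they were CNBP (0.046) and FAM206A (0.048), both with 1.08. With 2 groups of 3 libraries, likeness of this kind rests mostly on a similar fold change.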

How the data were processed

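RNA of MDA-MB-231 shBry and shNC cells was sequenced, 3 libraries per group, grouped by the labels. The authors deposited raw counts, whole reads per gene symbol and library, without normalization. The submitters' processing notes name HISAT2 2.0.4, HTSeq and GRCh38, while the annotation and the use of strand are not given in the sources used here. The deposited design text calls the RNA pericardial, and the labels were followed.

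From the counts, genes were filtered with filterByExpr of edgeR 4.0.16 (minimum count 10, R 4.3.3), libraries were scaled with TMM, and groups were compared by the quasi-likelihood test with Benjamini-Hochberg adjustment over 15277 tested genes. A gene was called past 1.5-fold at an adjusted p under 0.05. The standard error is the log2 fold change divided by the square root of F. Depth limits single values as given for each low gene.

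Members and lists were chosen with earlier results of these data known. List genes named were the called genes with the largest changes (at most 4 per list, mean of at least 1 CPM, no overlap between groups) and the gene with the highest mean CPM, and the 2 genes nearest to PLAU, PLAUR and F3. Further genes were chosen after their values were seen. List genes that are not named are covered by the counts, except 1 gene that was left out of the lists and is not reported here. Locations, exon overlaps and lengths came from GENCODE 29, matched by symbol, and promoters from RefSeq. Alternatives were DESeq2 1.42.0, limma-voom (limma 3.58.1), library totals, other filters and fold change limits, a replicate block, and each library left out. Libraries of 1 group differed by more than sampling noise (chi-square per degree of freedom 4.94 to 16.7).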

Additional observations from a re-analysis of the deposited data

How the results depend on the processing

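At the fold change limit of 1.5, 6 of the 7 called members were called under each alternative that tested them. The exception was SERPINB8, whose log2 fold change of 0.46 to 0.67 over 12 alternatives was called in 4, and lost its call also with library totals, without the filter, with the stricter filter and with DESeq2. Over 12 alternatives PLAU lay between 0.65 and 0.74, PLAUR between 0.85 and 0.96, SERPINE2 between 1.15 and 1.28, SERPINB9 between 1.04 and 1.17, F3 between 1.01 and 1.12, and PLAT, never called, between -0.48 and -0.42. SERPINB2 (5.09 to 5.69) and SERPINB7 (-1.19 to -0.35, never called) were each tested in 11, since a minimum of 10 counts in every library removed them. The fold change limit mattered most. With a limit of 2, 2297 of 15277 tested genes were called, 4 of the 9 members and 0 of the 9 tested genes of the plasminogen list. With no limit, 8139 of 15277 tested genes were called (53.3%). Called then were 9 of 12 tested genes of the coagulation list and 5 of 6 of the LY6/uPAR list. The other proteases and inhibitors had 5 called of 13 tested, and the other serpins 5 of 8. Without the filter on low counts, 5 of 10 tested genes of the LY6/uPAR list were called, beside 5334 of 25518 tested genes. With each library left out, the plasminogen list had 2 to 4 called genes of 9 tested, with 2 without shNC replicate 1. Between 4587 and 5025 of all genes were called, of 15493 to 15691 tested.

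Whether same-numbered libraries of the groups were prepared together is not given in the sources used here. Their deviations had correlations of 0.169, -0.0737 and -0.0223, inside the range of -0.202 to 0.207 of differently numbered libraries. Deviations from 3 libraries per group cannot decide whether the numbers pair them. With the replicate block 4914 genes and 7 members were called, against 4945 and 7 without it, and the LY6/uPAR list had 4 called genes against 3. No direction was reversed for the members or for the list and nearest genes recomputed under the alternatives. ANXA2, TFPI, SPINT1, SPINT2, SERPINB1, SERPINB6 and LY6E were not recomputed.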

Other observations

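LY6E, a gene of the same domain family as PLAUR, varied between libraries in a way that did not follow the groups. It had 15.6, 2.93 and 15.6 CPM in shNC replicates 1, 2 and 3 and 11.2, 1.9 and 1.95 CPM in shBry replicates 1, 2 and 3. The log2 fold change of -1.22 (standard error 0.60) was not called (adjusted p = 0.10, edgeR). The gene was singled out after its values were seen.

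LYPD1, of the same family, had 2, 0 and 1 counts in the shNC libraries and 8, 9 and 21 counts in the shBry libraries, and the filter on low counts removed it before the test.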
